A study of Mus musculus with 9 samples.

Results

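The mouse genome holds many cytochrome P450 genes of family 2, and the members described here are those of the Cyp2c, Cyp2d and Cyp2j subfamilies together with the small subfamilies Cyp2g, Cyp2r, Cyp2s, Cyp2t and Cyp2u. They were chosen by name alone, as every row of the deposited gene table whose symbol is Cyp2, then c, d, g, j, r, s, t, u or w, then digits, with pseudogenes left out. That gave 31 of 28517 genes: 14 Cyp2c, 7 Cyp2d, 5 Cyp2j and 5 others (Cyp2g1, Cyp2r1, Cyp2s1, Cyp2t4 and Cyp2u1). The samples were livers of db/db mice, a strain made obese and diabetic by loss of leptin signalling, and every group carries that genotype. Treatment lasted 12 weeks and was PBS in the vehicle group and FGF19WT or FGF19ΔKLB in the others, with 3 libraries in each group. FGF19 is an intestinal hormone that acts on hepatocytes through FGFR4 and the co-receptor β-klotho, encoded by Klb. The labels used here do not give the sequence change of FGF19ΔKLB or the age and sex of the mice. They also do not say whether the libraries are separate animals, so every p-value below measures only the spread between these samples, which may be technical.

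Cytochromes P450 are haem enzymes of the endoplasmic reticulum that insert oxygen into fat-soluble substrates, and they take their electrons from the reductase encoded by Por. Several enzymes of the 2C and 2J subfamilies oxidise arachidonic acid and other fatty acids to epoxides and alcohols, and some clear drugs. Enzymes of the 2D subfamily act on drugs and steroids. Cyp2c70 is the mouse enzyme that turns chenodeoxycholic acid into muricholic acids, and Cyp2r1 hydroxylates vitamin D. Many of these genes are set in the liver by the receptors CAR (Nr1i3) and PXR (Nr1i2), by HNF4α, and by the pulses of growth hormone.

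On the GRCm38 build the 7 Cyp2d genes lie within 423.8 kb of chromosome 15 (82370527 to 82794294) and the 5 Cyp2j genes within 369.6 kb of chromosome 4 (96294508 to 96664154). On chromosome 19, 13 of the 14 Cyp2c genes run from Cyp2c55 (start 39007019) to Cyp2c70 (end 40187333), and Cyp2c23 stands apart at 44005022 to 44029208. Cyp2u1 is on chromosome 3, and Cyp2g1, Cyp2r1, Cyp2s1 and Cyp2t4 are on chromosome 7.

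RefSeq promoter windows on GRCm38.p6 were matched by symbol for 25 of the 31 genes, and the 250 bases before each start were searched on both strands. The letters CAAAGTCCA, a classic HNF4 site, stood in 6 of the 25 windows (24.0%) and in 0.38% of 32851 windows of that length over all genes. The 6 were Cyp2c40, Cyp2c65, Cyp2c67, Cyp2c68, Cyp2c69 and Cyp2c70, all in the chromosome 19 cluster. All of these genes except Cyp2c65 had counts in every library, though all but Cyp2c70 share much transcript sequence with other genes, as given below. The stretches of those with counts throughout are shown because 4 of them are near copies of each other while Cyp2c70 is not, although the site is the same. Capitals mark the site, the strand is the minus strand in each, and the ranges are chr19:39812826-39812884 for Cyp2c40, chr19:39886811-39886869 for Cyp2c69, chr19:39649134-39649192 for Cyp2c67, chr19:39741145-39741203 for Cyp2c68 and chr19:40187317-40187375 for Cyp2c70.
Cyp2c40: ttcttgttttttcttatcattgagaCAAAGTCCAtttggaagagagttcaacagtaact
Cyp2c69: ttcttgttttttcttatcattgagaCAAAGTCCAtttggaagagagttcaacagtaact
Cyp2c67: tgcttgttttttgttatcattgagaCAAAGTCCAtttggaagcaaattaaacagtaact
Cyp2c68: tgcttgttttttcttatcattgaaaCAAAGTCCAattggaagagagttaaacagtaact
Cyp2c70: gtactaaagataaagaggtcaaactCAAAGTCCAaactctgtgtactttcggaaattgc
The Cyp2c40 and Cyp2c69 stretches differed at 0 of 59 bases. Against Cyp2c69, and counting from 1 at the 5′ end of the stretch, Cyp2c68 differed at 4 bases (T2G, G24A, T35A and C49A) and Cyp2c67 at 6 (T2G, C13G, A43C, G44A, G46A and C49A). Cyp2c70 differed at 41. The end of its stretch runs into the gene as GENCODE draws it, since RefSeq places the start further in.

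Other letters searched in the same way were TATAAA, the box that sets the start in some promoters, found in 12 of the 25 windows (48.0%) against 12.37% of all windows, and GTTAAT (part of an HNF1 site), in 4 (16.0%) against 6.43%. TGTTTAC (FOXA) was in 3 (12.0%) against 3.17%, CTTTGAT (TCF/LEF) in 2 (8.0%) against 3.21%, and TTCNNNGAA (STAT) in 1 (4.0%, Cyp2j11) against 7.02%. No pair of these motifs was required to lie apart. Such matches describe the letters only, and neighbouring genes of a cluster share much of their sequence, so the windows are not independent.

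The near copies also bear on the measurements. Of the 50-base windows in the annotated transcripts of Cyp2c40, 60.3% occur in a transcript of some other gene, 36.7% in those of Cyp2c69. The share was 54.3% for Cyp2c69, 52.8% for Cyp2c67, 43.3% for Cyp2c68, 37.2% for Cyp2d11, 35.8% for Cyp2d10, 30.1% for Cyp2c37, 25.7% for Cyp2c54, 21.8% for Cyp2d9 and 18.3% for Cyp2c50. Values of these genes are uncertain as far as the split of shared reads is concerned. Cyp2c23, Cyp2c70, Cyp2j9 and Cyp2r1 share 0%, Cyp2j5 0.2% and Cyp2c55 0.5%. Cyp2t4 overlaps Egln2 and Cyp2u1 overlaps 4930534D22Rik on the opposite strand, and the labels do not say whether counting used strand.

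Library totals were 65.1 to 73.3 M counts. At about 4 counts per read pair, a value inferred from the low counts, they would stand for 16.3 to 18.3 M read pairs. The liver label fits the markers: 7 listed hepatocyte genes summed to between 97330 and 291000 CPM, which are counts scaled to a fixed library total. FGF19WT libraries 2 and 3 stood apart from the other 7 libraries. In them 8 pericentral hepatocyte genes summed to 32920 and 29580 CPM, against 2325 to 9666 elsewhere, and 7 periportal genes to 137.6 and 185.1 CPM, against 3142 to 4838. Kupffer cell markers (7 genes) summed to 31.3 and 11.3 CPM there, against 160.1 to 254.9 elsewhere, and markers of the sinusoidal endothelium (6 genes) to 35.4 and 21.4 CPM, against 58.6 to 133.4. Most of these 2 endothelial sums was Fcgr2b (19.7 and 13.7 CPM), which lay within its range elsewhere (10.6 to 27.4 CPM). Stab2, Clec4g, Lyve1, Oit3 and Kdr were each below all other libraries there. B cell markers (4 genes) ranged over 81.8 to 191.9 CPM in the vehicle libraries, 3.13 to 14.1 CPM in the FGF19WT libraries and 17.5 to 43.7 CPM in the FGF19ΔKLB libraries, and T cell markers (5 genes) over 5.65 to 12.6, 0.42 to 2.23 and 1.23 to 2.02 CPM. Most of each B cell sum was Igkc. Mean Cd79a was also lower with FGF19WT than in vehicle (0.61 against 1.16 CPM). Mean Cd79b (1.12 against 0.91 CPM) and Ms4a1 (0.40 against 0.32 CPM) were not. Between vehicle and FGF19ΔKLB, sums did not overlap for the pericentral genes (5462 to 9666 CPM in vehicle, 2325 to 4140 CPM with FGF19ΔKLB), of which edgeR called Oat and Slc1a2 lower over 6 libraries. They also did not overlap for the endothelium (106.4 to 129.2 against 58.6 to 90.02 CPM), for 5 stellate cell markers (222.5 to 261.4 against 88.2 to 172.7 CPM) or for hepatocyte markers (99550 to 160900 against 199600 to 291000 CPM). Most of the hepatocyte sum was Alb. Mean Apoa1, Serpina1a and Cps1 were also higher with FGF19ΔKLB, but Ttr (5685 against 6697 CPM), Apob (740 against 1020) and Pck1 (1613 against 2152) were lower. Most of the stellate sum in vehicle was Dcn. Mean Dcn, Reln, Lrat and Des were lower with FGF19ΔKLB, and Col1a1 was higher (7.79 against 6.67 CPM). In FGF19WT libraries 2 and 3 the stellate markers went different ways. Dcn (5.03 and 0.77 CPM, against 35.4 to 186.3 elsewhere), Lrat and Des were below all other libraries. Reln (174.8 and 211.8 CPM, against 31.3 to 47.9) was above them, and Col1a1 was highest in library 2 and lowest in library 3. The part of all these differences in the results below was not tested. In such bulk tissue, fewer cells of a type and less RNA per cell cannot be told apart.

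Levels differed widely between the genes. Compared per transcript length, in the authors' FPKM, 10 genes had a median of at least 100 over the 9 libraries, 7 lay between 10 and 100, 7 between 1 and 10, and 7 under 1. Cyp2d26 led with a median of 471 FPKM (427 to 699), followed by Cyp2d10 with 334 FPKM (191 to 400), Cyp2c68 with 215 FPKM (143 to 323) and Cyp2c50 with 165 FPKM (77.2 to 263). Cyp2d26 and Cyp2d10 did not overlap in range, whereas Cyp2d10 and Cyp2c68 did, as did each further pair of neighbours down to the tenth gene, Cyp2c54 (112 FPKM). Cyp2j5 (117 FPKM) was the ninth and ranged from 4.83 to 236 FPKM, the widest ratio of highest to lowest among these 10. All 14 Cyp2c genes together reached 1069 to 1611 FPKM, the Cyp2d genes 748 to 1257 FPKM. All 31 genes took between 0.484% and 0.689% of a library's counts.

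**Figure D1:**
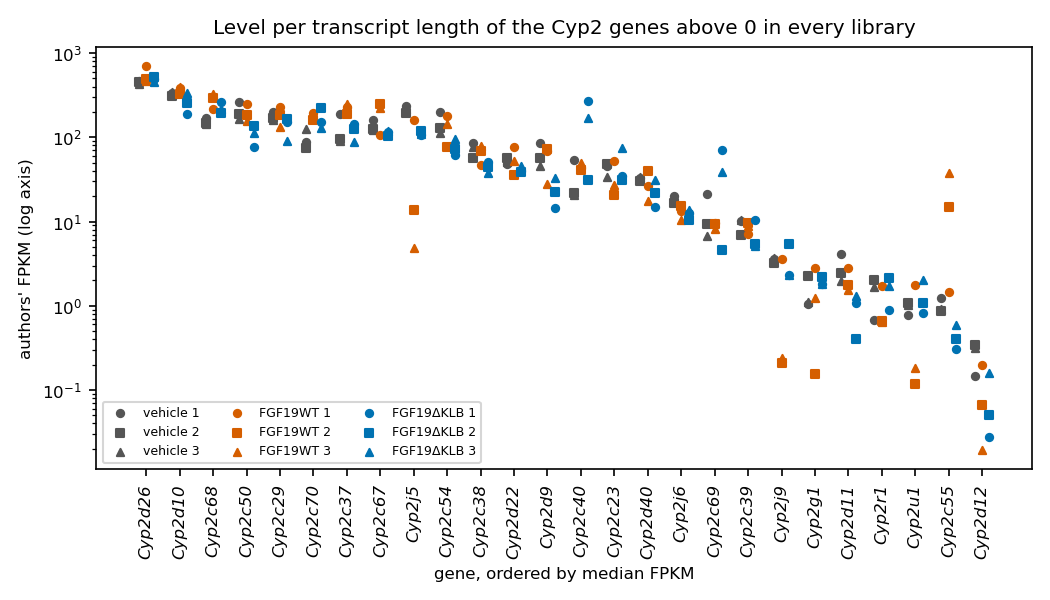
Level per transcript length, as the authors' FPKM on a log axis, of the 26 Cyp2 genes above 0 in every library, ordered by median; each point is 1 library, coloured by group, with circles, squares and triangles for libraries 1, 2 and 3. Cyp2d26 stands at the left with 427 to 699 FPKM, and Cyp2j5 shows FGF19WT libraries 2 and 3 far below the other 7.

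In the text below, values per library are CPM scaled with TMM factors, which compare a gene with itself between libraries, and are given in the order of libraries 1, 2 and 3. Of the 31 genes, 28 passed the filter on low counts. Cyp2c65, Cyp2j8 and Cyp2j11 did not, with at most 0.051, 0.28 and 0.059 CPM in any library. A gene was called at a Benjamini-Hochberg adjusted p under 0.05 in edgeR's quasi-likelihood test, once in a fit to all 9 libraries and once in a fit to the 6 libraries of the groups compared. The 6-library fits leave out the spread of the third group. The common biological coefficient of variation was 0.471 over 9 libraries and 0.326 over the 6 libraries of vehicle and FGF19ΔKLB.

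For FGF19WT against vehicle, 0 of the 28 genes were called by edgeR over 9 libraries, where 0.11% of all genes tested were called, and 0 over 6 libraries, where 0.00574% were. At an unadjusted p under 0.05 there were 5 (4 higher, 1 lower) over 9 libraries, or 17.9% against 18.8% of all genes, and over 6 libraries 4, or 14.3% against 14.5%. DESeq2 called 3 (Cyp2c55, Cyp2c68 and Cyp2c70, with 9.73% of all genes called), and limma on log2(FPKM + 1) called 0. Groups did not overlap in 5 of 28 genes (3 higher, 2 lower), or 17.9%, against 22.6% of all genes. The median log2 fold change was −0.11, beside −0.01 for all genes, and the median size of change was 0.43, beside 0.44.

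For FGF19ΔKLB against vehicle, 0 genes were called over 9 libraries (0.011% of all genes) and 1, Cyp2j5, over 6 libraries (1.68% of all genes). At an unadjusted p under 0.05 there were 7 (3 higher, 4 lower) over 9 libraries, or 25% against 8.35% of all genes, and 11 (3 higher, 8 lower) over 6, or 39.3% against 17.3%. DESeq2 called 2 (Cyp2c40 and Cyp2c70, with 2.06% of all genes called) and limma 0. Groups did not overlap in 10 of 28 genes (3 higher, 7 lower), or 35.7%, against 24.6% of all genes. The median log2 fold change was −0.13, beside 0.00 for all genes, and the median size of change was 0.52, beside 0.29.

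For FGF19ΔKLB against FGF19WT, 0 genes were called over 9 libraries (0% of all genes) and 0 over 6 (0.00584% of all genes). At an unadjusted p under 0.05 there were 4 (2 higher, 2 lower) in either fit, or 14.3%, against 12.5% of all genes over 9 libraries and 8.80% over 6. DESeq2 called 1 (Cyp2c55, with 4.65% of all genes called), and limma 0. Groups did not overlap in 3 of 28 genes, all lower with FGF19ΔKLB, or 10.7%, against 13.5% of all genes. The comparisons share libraries pairwise, so their counts are not independent of each other.

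**Figure D2:**
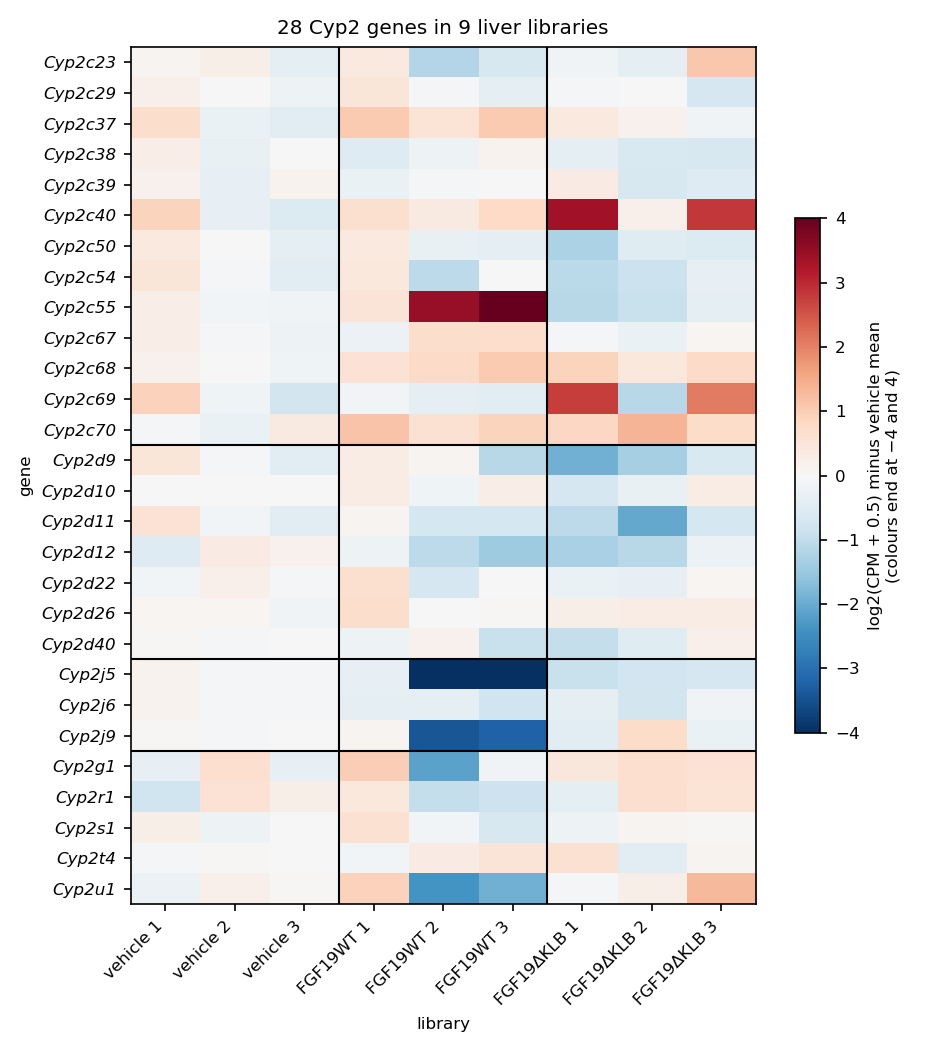
Difference of each library from the vehicle mean, on the log2(CPM + 0.5) scale, for the 28 genes that passed the filter, with colours ending at −4 and 4; rows are genes by subfamily and columns are the 9 libraries. Cyp2j5, Cyp2j9, Cyp2u1 and Cyp2c55 show deep colours in FGF19WT libraries 2 and 3, as does Cyp2g1 in library 2, and Cyp2c40 and Cyp2c69 show them in FGF19ΔKLB libraries 1 and 3.

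**Figure D3:**
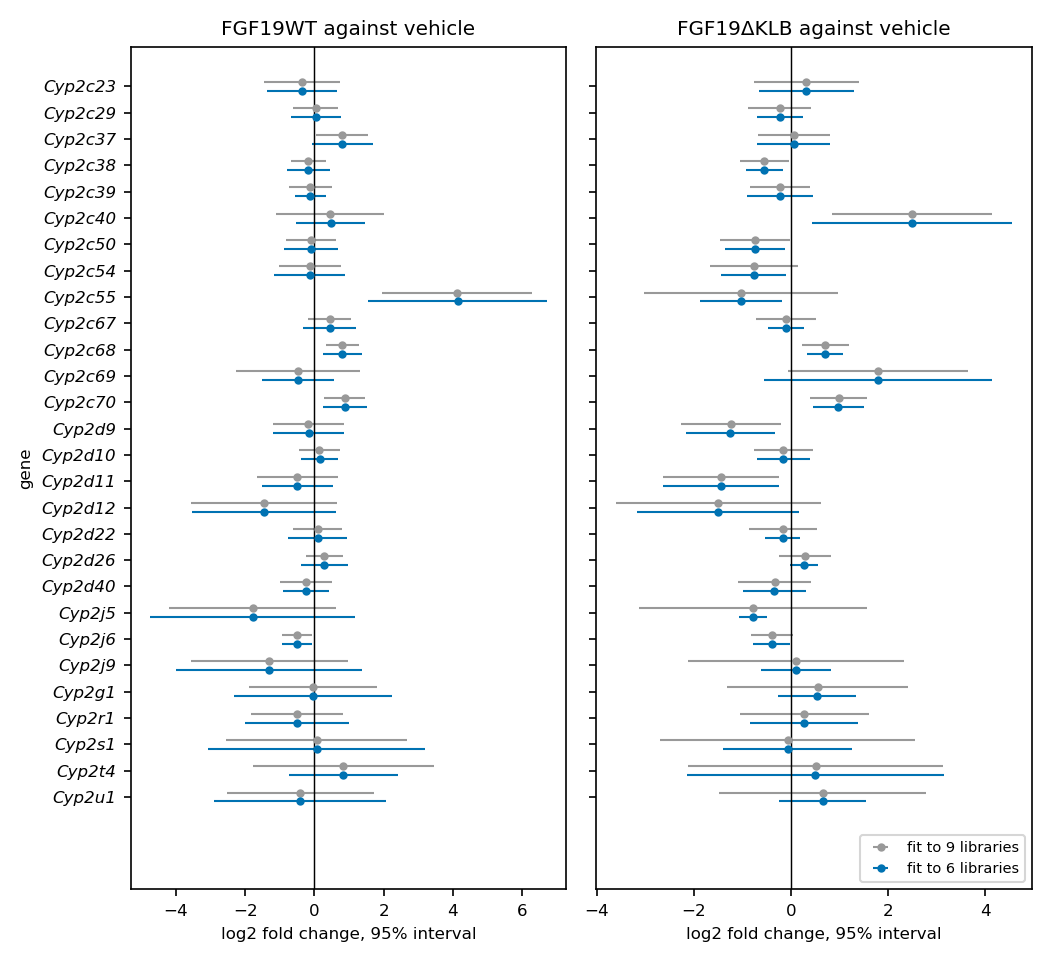
Log2 fold change with its 95% interval for the 28 genes, FGF19WT against vehicle on the left and FGF19ΔKLB against vehicle on the right, from edgeR fits to 9 libraries (grey) and to 6 libraries (blue); the x axes differ in range. On the right, the Cyp2j5 interval runs from −3.13 to 1.56 over 9 libraries and from −1.08 to −0.50 over 6.

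Cyp2j5, an arachidonic acid epoxygenase of liver and kidney (chromosome 4, 96628773 to 96664154), was the one gene of the set that edgeR called with every library of the compared groups in the fit, over 6 libraries for FGF19ΔKLB against vehicle. Its level was 587, 498 and 512 CPM in vehicle, 286, 310 and 330 CPM with FGF19ΔKLB, and 420, 30.9 and 11.9 CPM with FGF19WT. Each treated library lay below each vehicle library, and FGF19ΔKLB libraries lay close together while FGF19WT libraries did not. The means were 532 ± 47 (SD, n = 3), 309 ± 22 and 154 ± 230 CPM.

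With FGF19ΔKLB, Cyp2j5 fell by 0.79 on the log2 scale (SE 0.13) over the 6 libraries, with an adjusted p of 0.033 in edgeR. Over 9 libraries the change was the same size, −0.79, with SE 1.03 and an adjusted p of 0.91. The call was lost when any of the 6 libraries was left out, with adjusted p values between 0.067 and 0.11 and changes between −0.84 and −0.71. Without FGF19WT libraries 2 and 3, the fit that keeps FGF19WT library 1 called it again (−0.79, adjusted p = 0.031). With FGF19WT the change was −1.79 (SE 1.06, adjusted p = 0.38), and without FGF19WT library 1 it was −4.64 (adjusted p = 0.00021). DESeq2 gave no p for Cyp2j5 or Cyp2j9.

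Cyp2j6, a related gene that is also expressed in the intestine (chromosome 4, 96516138 to 96553661), was at 76.0, 66.0 and 66.1 CPM in vehicle, 53.6, 52.4 and 39.8 CPM with FGF19WT and 53.0, 41.8 and 63.0 CPM with FGF19ΔKLB. All 6 treated libraries lay below all vehicle libraries. The log2 change was −0.51 with FGF19WT (SE 0.19, adjusted p = 0.20) and −0.40 with FGF19ΔKLB (SE 0.19, adjusted p = 0.64), both over 9 libraries in edgeR. FGF19WT libraries 2 and 3 did not stand apart from the rest in this gene, unlike in Cyp2j5 and Cyp2j9.

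Cyp2j9, chosen after its values were seen (chromosome 4, 96568429 to 96591578), was at 12.8, 11.7 and 12.3 CPM in vehicle, 13.4, 0.68 and 0.86 CPM with FGF19WT, and 9.08, 20.5 and 10.03 CPM with FGF19ΔKLB. FGF19WT library 1 was thus at the vehicle level and the other 2 were far below it. Cyp2j genes together reached 213 to 259 FPKM in vehicle, 176, 29.3 and 15.6 FPKM with FGF19WT, and 120 to 133 FPKM with FGF19ΔKLB. Cyp2j5, in the level per length, made up most of each of these sums except in FGF19WT libraries 2 and 3.

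Cyp2c70 (chromosome 19, 40153353 to 40187333), the muricholic acid enzyme, was at 184, 161 and 253 CPM in vehicle, 432, 300 and 367 CPM with FGF19WT, and 348, 501 and 327 CPM with FGF19ΔKLB. All 6 treated libraries lay above all vehicle libraries, and the treated groups overlapped. The means were 199 ± 48, 366 ± 66 and 392 ± 95 CPM (SD, n = 3). The log2 change over 9 libraries was 0.88 with FGF19WT (SE 0.26, adjusted p = 0.14) and 0.98 with FGF19ΔKLB (SE 0.26, adjusted p = 0.34) in edgeR, neither past the threshold. In the 6-library fit the FGF19ΔKLB value had an adjusted p of 0.084, and DESeq2 called both, with adjusted p values of 0.021 and 0.027. Between FGF19ΔKLB and FGF19WT the difference was 0.10 with a 95% interval of −0.49 to 0.68.

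Cyp2c68, whose near copy of the promoter stretch is shown above (chromosome 19, 39688834 to 39741054), was at 314, 282 and 250 CPM in vehicle, 415, 478 and 586 CPM with FGF19WT, and 523, 377 and 475 CPM with FGF19ΔKLB. Again all 6 treated libraries lay above all vehicle libraries. The log2 change over 9 libraries in edgeR was 0.81 with FGF19WT (SE 0.21, adjusted p = 0.13) and 0.70 with FGF19ΔKLB (SE 0.21, adjusted p = 0.42). DESeq2 called the first (adjusted p = 0.0044). The interval of FGF19ΔKLB against FGF19WT ran from −0.58 to 0.38.

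Cyp2c67, with the same site (chromosome 19, 39608842 to 39649051) and chosen after its values were seen, was at 294, 237 and 215 CPM in vehicle, 208, 406 and 400 CPM with FGF19WT, and 232, 203 and 260 CPM with FGF19ΔKLB. FGF19WT libraries 2 and 3 lay above all others, and FGF19WT library 1 lay below all vehicle libraries. The log2 change with FGF19WT was 0.44 (SE 0.27) and without FGF19WT library 1 it was 0.69, with an adjusted p of 0.020 in edgeR.

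Cyp2c40 (chromosome 19, 39767071 to 39812814) and Cyp2c69 (39842814 to 39886799), chosen after their values were seen, are the neighbours with identical promoter stretches. Cyp2c40 oxidises arachidonic acid, and both are known as more abundant in female than in male mouse liver. Cyp2c40 was at 116, 49.1 and 42.1 CPM in vehicle, 97.8, 79.8 and 108 CPM with FGF19WT, and 646, 71.0 and 447 CPM with FGF19ΔKLB. Cyp2c69 was at 38.1, 17.5 and 11.7 CPM in vehicle, 18.3, 15.3 and 14.7 CPM with FGF19WT, and 138, 8.84 and 85.1 CPM with FGF19ΔKLB. In both genes FGF19ΔKLB libraries 1 and 3 were above all other libraries, and library 2 was within the vehicle range or below it.

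Because the genes share so many reads, their sum is also given: 154, 66.6 and 53.7 CPM in vehicle, 116, 95.1 and 122 CPM with FGF19WT, and 784, 79.8 and 532 CPM with FGF19ΔKLB. The highest FGF19ΔKLB library exceeded the lowest by 9.10 times in Cyp2c40 and 15.6 times in Cyp2c69, ratios that 7.25% and 6.27% of all genes tested reached. Over 9 libraries the log2 change with FGF19ΔKLB in edgeR was 2.49 for Cyp2c40 (SE 0.72, adjusted p = 0.40) and 1.79 for Cyp2c69 (SE 0.81, adjusted p = 0.62). DESeq2 called Cyp2c40 (adjusted p = 0.017). Cyp2c68, which shares 35.6% of its 50-base windows with Cyp2c40, did not show the gap between FGF19ΔKLB library 2 and the others to that extent (377 against 475 and 523 CPM).

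**Figure D4:**
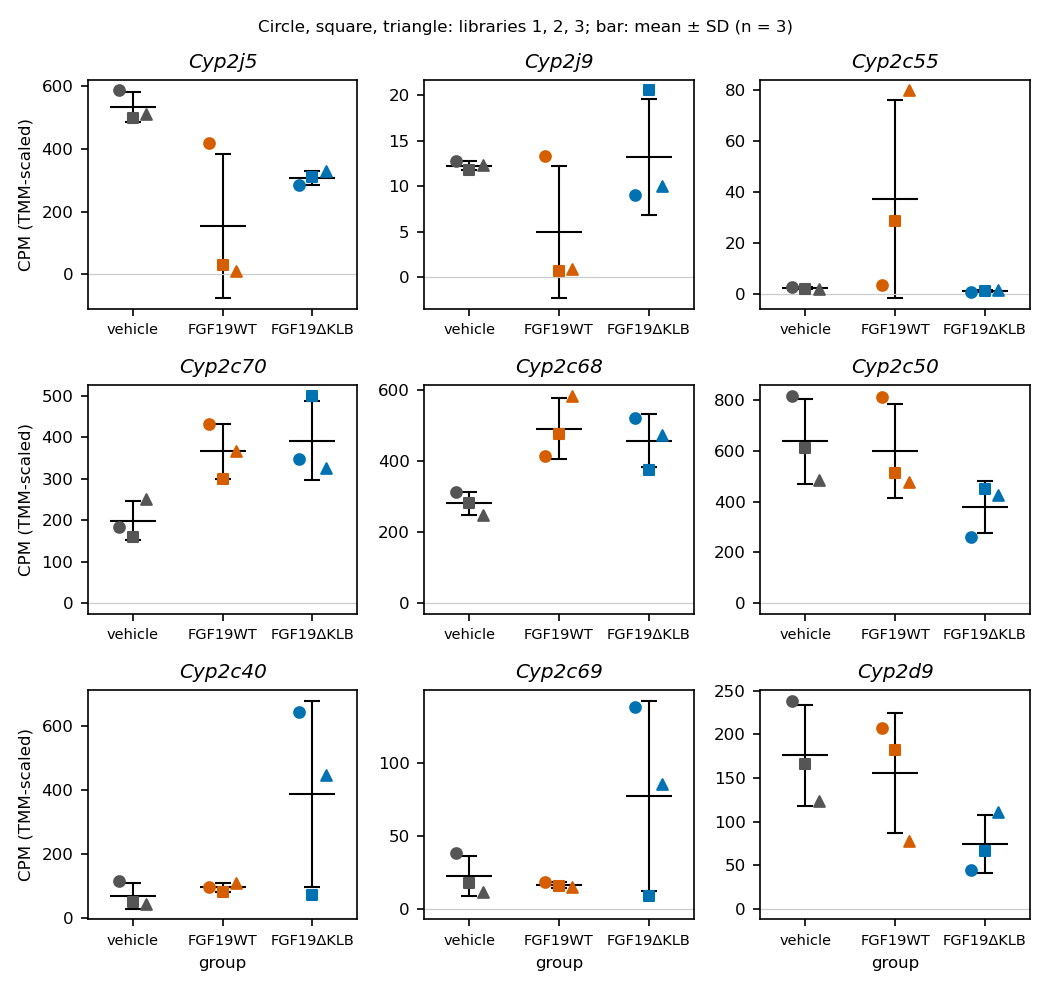
CPM of 9 genes in the 9 libraries, with circles, squares and triangles for libraries 1, 2 and 3, and horizontal bars for the mean ± SD (n = 3). Cyp2j5, Cyp2j9 and Cyp2c55 split FGF19WT library 1 from libraries 2 and 3, while Cyp2c40 and Cyp2c69 split FGF19ΔKLB library 2 from libraries 1 and 3.

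Cyp2c55 (chromosome 19, 39007019 to 39042693), a fatty acid hydroxylase of the colon that CAR and PXR ligands induce in liver, also stood apart and was chosen after its values were seen. It was at 2.60, 1.89 and 1.85 CPM in vehicle, 3.24, 28.5 and 79.7 CPM with FGF19WT, and 0.70, 0.90 and 1.51 CPM with FGF19ΔKLB. The 3 groups did not overlap, with FGF19WT highest and FGF19ΔKLB lowest. The log2 change with FGF19WT was 4.13 (SE 0.95, adjusted p = 0.13) over 9 libraries in edgeR, and DESeq2 called it (4.14, adjusted p = 4.5e-05). Without FGF19WT libraries 2 and 3 it was 0.61, with 1 FGF19WT library left. FGF19ΔKLB differed from FGF19WT by −5.16 (SE 1.005, adjusted p = 0.24) in edgeR.

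Of 5 listed intestine markers, 4 are in the table, and their summed level beside Cyp2c55 was 128 to 207 CPM for vehicle, 88.1 to 189 CPM for FGF19WT and 154 to 210 CPM for FGF19ΔKLB, most of it from Fabp2. Vil1 was at most 1.41 CPM and Cdh17 at most 1.07 CPM, both highest in FGF19WT libraries 2 or 3. Cyp2c65, the neighbour of Cyp2c55 at 39061015 to 39093944, was at 0 CPM in 7 of 9 libraries.

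Cyp2c37 (39992424 to 40012243), Cyp2c54 (40037940 to 40073827) and Cyp2c50 (40089688 to 40113950) are 3 neighbouring arachidonic acid epoxygenases that share windows with each other. Cyp2c37 was at 371, 192 and 168 CPM in vehicle, 468, 332 and 474 CPM with FGF19WT, and 301, 255 and 206 CPM with FGF19ΔKLB. FGF19WT libraries lay above all FGF19ΔKLB libraries, and vehicle overlapped both. The log2 difference of FGF19ΔKLB from FGF19WT was −0.74 (SE 0.33, adjusted p = 0.40) in edgeR over 9 libraries.

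Cyp2c50 was at 815, 610 and 485 CPM in vehicle, 810, 510 and 475 CPM with FGF19WT, and 261, 450 and 425 CPM with FGF19ΔKLB. The FGF19ΔKLB libraries were the lowest 3 of the 9, with a log2 change from vehicle of −0.75 (SE 0.32, adjusted p = 0.58) in edgeR over 9 libraries. Cyp2c54, chosen after its values were seen, overlapped between all groups (202 to 376 CPM for vehicle, 131 to 358 CPM for FGF19WT, 126 to 215 CPM for FGF19ΔKLB). The 3 genes summed to 855 to 1563 CPM for vehicle, 973 to 1636 CPM for FGF19WT and 688 to 852 CPM for FGF19ΔKLB, so the sum was lowest in the FGF19ΔKLB libraries too.

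Cyp2c38 (39389556 to 39463075) was at 262, 177 and 220 CPM in vehicle, 152, 189 and 240 CPM with FGF19WT, and 168, 142 and 140 CPM with FGF19ΔKLB. FGF19ΔKLB lay below vehicle without overlap, by −0.55 on the log2 scale (SE 0.22, adjusted p = 0.57) in edgeR over 9 libraries. The other measured Cyp2c genes overlapped between groups in every comparison. Cyp2c29, a classic target of CAR, ranged from 355 to 796 CPM, Cyp2c23 from 42.8 to 203 CPM and Cyp2c39 from 10.9 to 21.8 CPM.

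Cyp2d26 (chromosome 15, 82790101 to 82794294), the most abundant gene of the set per length, was at 896, 900 and 773 CPM in vehicle, 1404, 841 and 888 CPM with FGF19WT, and 1013, 1055 and 1046 CPM with FGF19ΔKLB. FGF19ΔKLB lay above vehicle without overlap and within a narrow range, and FGF19WT library 1 was the highest of all. The log2 change with FGF19ΔKLB was 0.28 (SE 0.24, adjusted p = 0.83) over 9 libraries in edgeR.

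Cyp2d9 (82433437 to 82456845), a testosterone 16α-hydroxylase known as more abundant in male mouse liver, was at 239, 166 and 123 CPM in vehicle, 208, 182 and 78.2 CPM with FGF19WT, and 44.9, 66.8 and 111 CPM with FGF19ΔKLB. The highest FGF19ΔKLB library was close to the lowest vehicle library, though the groups did not overlap. The log2 change was −1.25 (SE 0.45, adjusted p = 0.51) over 9 libraries and had an adjusted p of 0.17 over 6, both in edgeR.

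Cyp2d11, chosen after its values were seen, was at 7.01, 4.25 and 3.19 CPM in vehicle and 1.97, 0.72 and 2.64 CPM with FGF19ΔKLB, without overlap. FGF19WT, at 5.01, 2.65 and 2.60 CPM, overlapped both. It shares 26.9% of its windows with Cyp2d10, which was far more abundant (364 to 712 CPM) and overlapped between groups. Cyp2d22 ranged from 135 to 338 CPM, Cyp2d40 from 31.4 to 71.3 CPM and Cyp2d12 from 0.087 to 1.46 CPM, with overlap in every comparison. Of the 7 Cyp2d genes, 6 had a negative log2 change with FGF19ΔKLB, with a median of −0.34 beside 0.00 for all genes, and 0 were called.

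The 5 genes of the small subfamilies had low levels, and 0 were called or free of overlap in any comparison. Cyp2r1 (chromosome 7, 114549682 to 114562972), the vitamin D 25-hydroxylase, was at 1.51, 4.70 and 3.61 CPM in vehicle, 4.15, 1.32 and 1.45 CPM with FGF19WT, and 2.19, 5.05 and 4.60 CPM with FGF19ΔKLB. Its log2 change was −0.51 with FGF19WT (95% interval −1.84 to 0.83) and 0.27 with FGF19ΔKLB (−1.06 to 1.60). Cyp2u1, a fatty acid hydroxylase (chromosome 3, 131288441 to 131303224) chosen after its values were seen, was at 4.37, 6.18 and 5.42 CPM in vehicle, 10.4, 0.59 and 1.02 CPM with FGF19WT, and 5.03, 6.32 and 13.7 CPM with FGF19ΔKLB. As in Cyp2j9, FGF19WT libraries 2 and 3 were the lowest of the 9. Cyp2g1, known from the olfactory mucosa, ranged from 0.33 to 6.77 CPM, Cyp2s1 from 0 to 0.69 CPM and Cyp2t4 from 0 to 0.54 CPM.

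Among the 28 genes, FGF19WT libraries 2 and 3 were both above the other 7 libraries in 2 (Cyp2c55 and Cyp2c67) and both below them in 5 (Cyp2c23, Cyp2j5, Cyp2j9, Cyp2r1 and Cyp2u1). That is 25% of the genes, against 37.4% of all genes tested. When FGF19WT library 1 was left out, edgeR called 6 of the genes for FGF19WT against vehicle over the remaining 8 libraries (Cyp2c55, Cyp2c67, Cyp2c68, Cyp2j5, Cyp2j9 and Cyp2u1), with 27.4% of all genes called. It called 5 for FGF19ΔKLB against FGF19WT (the same without Cyp2c68), with 20.2% of all genes called. These calls rest on the 2 libraries whose zonal, Kupffer cell and endothelial marker sums, and some stellate cell markers, differ as given above. The part of these differences was not tested.

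The partners of these enzymes were read from 4 gene lists. Of 6 genes that pass electrons to P450 enzymes, 12 of haem synthesis and breakdown, and 2 measured epoxide hydrolases of 4, edgeR called 0 in any comparison in either fit. At an unadjusted p under 0.05 over 9 libraries, these lists held 3, 2 and 1 genes for FGF19WT against vehicle, 1, 2 and 0 for FGF19ΔKLB against vehicle, and 2, 2 and 0 for FGF19ΔKLB against FGF19WT. Over all genes tested the shares in these comparisons were 18.8%, 8.35% and 12.5%. Por was at 256, 292 and 356 CPM in vehicle, 260, 421 and 473 CPM with FGF19WT, and 285, 344 and 217 CPM with FGF19ΔKLB, so the groups overlapped.

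Of 20 regulators, edgeR called 0 over 9 libraries, with 3, 6 and 3 at an unadjusted p under 0.05 in the same order of comparisons, where 18.8%, 8.35% and 12.5% of all genes were. Over 6 libraries 1 rose and 3 fell with FGF19ΔKLB against vehicle (1.68% of all genes called). Cux2, a factor known as more abundant in female liver, was at 3.79, 2.97 and 7.23 CPM in vehicle, 17.9, 0.15 and 8.95 CPM with FGF19WT, and 57.0, 32.9 and 42.3 CPM with FGF19ΔKLB. It rose by 3.24 on the log2 scale (adjusted p = 0.022 in edgeR over 6 libraries). All 3 FGF19ΔKLB libraries were above the other 6, including library 2, in which Cyp2c40 and Cyp2c69 were not above the vehicle range. A link between Cux2 and these genes was not tested.

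Bcl6, a repressor known as more abundant in male liver, was at 28, 16.5 and 22.6 CPM in vehicle, 13.6, 14.5 and 9.74 CPM with FGF19WT, and 7.20, 5.97 and 3.24 CPM with FGF19ΔKLB. It fell by 2.03 on the log2 scale (adjusted p = 0.040 in edgeR over 6 libraries). Ghr, the growth hormone receptor, was at 298, 288 and 280 CPM in vehicle, 281, 132 and 86.9 CPM with FGF19WT, and 173, 186 and 142 CPM with FGF19ΔKLB. It fell by 0.79 with FGF19ΔKLB (adjusted p = 0.039 in edgeR over 6 libraries).

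Stat5a, which together with Stat5b carries the growth hormone signal to the nucleus, was at 14.0, 12.2 and 12.5 CPM in vehicle, 8.06, 19.2 and 15.1 CPM with FGF19WT, and 7.86, 7.70 and 8.19 CPM with FGF19ΔKLB. Stat5a fell by 0.71 with FGF19ΔKLB (adjusted p = 0.048 in edgeR over 6 libraries). The more abundant Stat5b, given after its values were seen, overlapped between these groups. Its level was 41.4, 34.9 and 43.2 CPM in vehicle and 36.6, 32.3 and 34.5 CPM with FGF19ΔKLB. Over 9 libraries the adjusted p values of Cux2, Bcl6, Ghr and Stat5a were 0.50, 0.14, 0.64 and 0.55. Leaving out 1 of the 6 libraries ended the call of Bcl6 and Stat5a in each case, of Ghr except without FGF19ΔKLB library 2 (0.048), and of Cux2 except without vehicle library 3 (0.013) or FGF19ΔKLB library 2 (0.034).

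Hnf4a, encoding HNF4α, whose binding to the stretches shown above was not measured, was at 508, 454 and 577 CPM in vehicle, 481, 420 and 466 CPM with FGF19WT, and 485, 529 and 518 CPM with FGF19ΔKLB. Vehicle overlapped both treated groups, and each FGF19ΔKLB library lay above each FGF19WT library, by 0.16 on the log2 scale (adjusted p = 0.71 in edgeR over 9 libraries). Nr1i3, encoding CAR, was at 533, 549 and 395 CPM in vehicle, 519, 162 and 253 CPM with FGF19WT, and 360, 480 and 249 CPM with FGF19ΔKLB. Nr1i2, encoding PXR, was at 120, 127 and 122 CPM in vehicle, 113, 69.8 and 96.7 CPM with FGF19WT, and 94.5, 133 and 99.9 CPM with FGF19ΔKLB. Its FGF19WT libraries lay below its vehicle libraries, by −0.40 on the log2 scale (adjusted p = 0.34 in edgeR over 9 libraries).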

How the data were processed

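Whole-liver RNA was sequenced in 9 libraries, 3 per group. The deposited table holds, per gene and library, an expected count, unscaled by the authors, and an FPKM value computed by the authors. Per the submitters' processing notes the tools were Bowtie 0.12.2, HISAT2 2.0 and StringTie 1.3.0, with no role stated, and the build mm8, but GENCODE M21 (GRCm38) holds all 28517 identifiers and 28480 of the starts, so positions are on GRCm38. Column code F19_HBS is the group titled FGF19ΔKLB, per the labels.

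The main test was edgeR 4.0.16 (R 4.3.3) on the counts: quasi-likelihood, robust, TMM factors, edgeR's filter on low counts (18142 genes left), group as the only term, Benjamini-Hochberg over all genes tested. SEs and 95% intervals of log2 fold changes are approximate, from the F statistic. It was tested on simulated data. Alternatives were 6-library fits, other filters, size factors of DESeq2, its Wald test (version 1.42.0), limma 3.58.1 on log2(FPKM + 1), counts divided by 4, a replicate block and leaving out libraries.

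The genes and lists were chosen with earlier results of these data known. Values in all libraries are given for genes called in either edgeR fit, for those of at least 10 FPKM whose groups do not overlap, and for Cyp2c70, Cyp2r1, Por, Nr1i3, Nr1i2 and Hnf4a. Other genes are said to be chosen after their values were seen. List genes Tf, Cdx2, Umod, Kap, Slc12a1 and Prss2 were not analysed here. Summed kidney markers reached at most 23.0 CPM, pancreas 6.81, cholangiocyte 63.4 and stellate cell 261 CPM in any library.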

Additional observations from a re-analysis of the deposited data

How the results depend on the processing

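Over the 24 pairs of gene and comparison followed through all settings, and 4 regulators followed through the 6-library settings, 0 of 511 alternative values reversed direction and 458 kept both direction and side of the threshold. Another 18 passed the threshold where the value first reported did not, and 35 lost it, all of these for Cyp2j5, Cux2, Bcl6, Ghr and Stat5a over 6 libraries. Only these genes over 6 libraries were called in the value first reported, so only they could lose a call, and most of their alternative values did. The other pairs started uncalled, so that they kept their side of the threshold does not show stable calls. For FGF19WT against vehicle, the number of genes called was 0 over 9 libraries, 3 with DESeq2, and 0 to 6 when 1 library was left out (6 without FGF19WT library 1); over 6 libraries it was 0 to 8. For FGF19ΔKLB against vehicle it was 0 over 9 libraries, 2 with DESeq2, 1 without both FGF19WT libraries 2 and 3, and 1 over 6 libraries, where it was 0 when any library was left out. For FGF19ΔKLB against FGF19WT it was 0, 1 with DESeq2, and 0 to 5 when 1 library was left out, over 9 and over 6 libraries alike. The highest numbers, 8 for FGF19WT against vehicle and 5 for FGF19ΔKLB against FGF19WT, came without FGF19WT library 1. The fit to the 8 libraries without it called 27.4% and 20.2% of all genes in these comparisons. For the smaller fits the share over all genes is not given here. DESeq2 was first run without the filter on low counts and then on the filtered genes, so that both tools started from the same genes, although DESeq2 still left 2 members without an adjusted p; the unfiltered run, added after seeing the data, also called 3, 2 and 1 genes. The median log2 fold change for FGF19WT against vehicle ranged from −0.38 to 0.11 over single omissions and was 0.34 without both FGF19WT libraries 2 and 3; for FGF19ΔKLB against FGF19WT it ranged from −0.14 to 0.14 and was −0.44 without both, where the lone FGF19WT library is assumed to vary like the other groups. Neither median has a stable sign. The cause of these shifts was not tested.

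With the replicate number as a block, the replicate block fit called 0 genes for FGF19ΔKLB against vehicle over 6 libraries, in place of 1, and Cyp2j5 had an adjusted p of 0.099. Same-numbered libraries correlated between −0.075 and 0.178 in their deviations from the group means, and differently numbered ones between −0.197 and 0.138. With 3 libraries a group, such values cannot decide whether the numbers pair the libraries. With 3 libraries a group, and if a read pair is worth about 4 counts as inferred, changes of genes near 1 CPM such as Cyp2d12, Cyp2s1 and Cyp2t4 rest on few read pairs.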
